A study of Rattus norvegicus with 18 samples.

Results

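Iron handling and ferroptosis were followed through 5 genes of the rat heart: Tfrc (ENSRNOG00000001766), Hmox1 (ENSRNOG00000014117), Slc7a11 (ENSRNOG00000010210), Gpx4 (ENSRNOG00000013604) and Ptgs2 (ENSRNOG00000002525). They were chosen by identifier, and all 5 were found among the 32545 rows of the gene table. The table carries no gene names, so each symbol is the one given with its identifier in the choice of these genes. The study asked how AICAR acts on hearts injured by doxorubicin. Doxorubicin is an anthracycline cancer drug that injures heart muscle, and AICAR is a nucleoside whose phosphorylated form mimics AMP and switches on AMPK, a kinase that senses low energy.

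All rats were male Wistar rats, an outbred strain, of 250 g at the start. The DOX+AICAR group (6 rats) received doxorubicin at 3 mg/kg per week by vein in 5 weekly injections, with AICAR at 0.5 g/kg under the skin. The DOX+saline group (6 rats) received the same doxorubicin injections with saline under the skin. The saline group (6 rats) received sterile saline by vein. A group given AICAR without doxorubicin was not analysed here, so AICAR could be examined only in rats that also received doxorubicin. Polyadenylated RNA from heart tissue of each rat was sequenced as 1 library.

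Iron enters most cells bound to transferrin, through the transferrin receptor encoded by Tfrc. Haem oxygenase 1, the product of Hmox1, opens the haem ring and releases its iron. Ferroptosis is a form of cell death in which iron drives the peroxidation of membrane lipids. Cystine brought in by the exchanger subunit Slc7a11 feeds glutathione synthesis, and the selenoenzyme Gpx4 uses glutathione to reduce lipid peroxides. Ptgs2, which encodes the inducible cyclooxygenase COX-2, is often measured as a transcript that rises during ferroptosis, and it also rises in inflammation. In the heart, doxorubicin is known to disturb iron balance, and the iron chelator dexrazoxane is used against its cardiac toxicity.

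The promoters of 3 genes whose levels separated doxorubicin from saline hearts are shown. The sequence before a start site of a gene that fell (Tfrc) can so be read beside genes that rose (Slc7a11 and Ptgs2). Each is the 250 bases before a start site in RefSeq (build GRCr8, another build than that of the measured values), 5′ to 3′ on the gene's own strand. Capitals mark matches to the motifs searched on both strands.
Tfrc, chr11:81690319-81690568, minus strand: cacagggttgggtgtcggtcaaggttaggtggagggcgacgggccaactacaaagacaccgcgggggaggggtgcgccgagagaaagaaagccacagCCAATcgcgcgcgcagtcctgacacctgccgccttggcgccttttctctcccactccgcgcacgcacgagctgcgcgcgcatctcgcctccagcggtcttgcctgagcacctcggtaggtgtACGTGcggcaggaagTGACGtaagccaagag
Slc7a11, chr2:136668265-136668514, minus strand: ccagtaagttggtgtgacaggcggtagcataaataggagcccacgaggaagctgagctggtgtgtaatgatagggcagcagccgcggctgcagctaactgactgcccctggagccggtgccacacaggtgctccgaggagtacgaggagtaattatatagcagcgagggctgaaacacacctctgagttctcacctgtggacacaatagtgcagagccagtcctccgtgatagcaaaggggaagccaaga
Ptgs2, chr13:64713813-64714062, plus strand: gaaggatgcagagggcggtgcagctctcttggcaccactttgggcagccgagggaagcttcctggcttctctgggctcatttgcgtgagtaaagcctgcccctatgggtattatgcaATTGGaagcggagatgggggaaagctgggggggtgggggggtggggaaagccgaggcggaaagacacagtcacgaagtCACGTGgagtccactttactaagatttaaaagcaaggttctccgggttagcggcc
The 7 motifs were the CAAT box (written CCAAT), the hypoxia response element core (written ACGTG), the E-box (written CACGTG, which contains the hypoxia core), the cyclic AMP response element half-site (written TGACG), the TATA box (written TATAAA), the antioxidant response element core bound by NRF2 (written TGACNNNGC) and the amino acid response element bound by ATF4 (written TGATGNAA). The Tfrc window held 1 CAAT box at 153 to 149 bases before the start, 1 hypoxia core at 31 to 27 and 1 cyclic AMP half-site at 16 to 12. The Ptgs2 window held 1 E-box at 55 to 50 bases before the start, which is a hypoxia core on both strands, and 1 CAAT box on the other strand at 133 to 129. The Slc7a11 window matched none of the 7. That window lies inside the RefSeq span of the gene (chr2:136532912-136668560), so it is not the sequence before the outermost start. The Tfrc and Ptgs2 windows lie directly outside the spans of their genes. Over 33469 RefSeq windows of this length, the share with a match was 34.0% for the CAAT box, 16.6% for the hypoxia core, 18.2% for the cyclic AMP half-site and 5.59% for the E-box. It was 12.9% for the TATA box, 10.1% for the antioxidant core and 3.40% for the amino acid element, which matched in none of these 3 windows. RefSeq lists 3 start sites for Gpx4, and the window of the first held the CAAT box once on each strand and the cyclic AMP half-site on the other strand. A match is a description of letters and not of a bound site.

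Levels are given in TPM (transcripts per 1000000, in which reads per base of a gene are set against the sum over all genes of that library), so levels can be compared between genes. A change in TPM is a change of share. Libraries held 20.57 to 31.32 M reads (M, 1000000) assigned to genes, as recovered from the steps of the TPM values. Tests used limma on log2(TPM + 1) over the 14732 genes that reached 1 TPM in 6 or more of 18 libraries, and a gene was called at a Benjamini-Hochberg adjusted p below 0.05. Tfrc, Hmox1 and Ptgs2 passed that filter. Slc7a11 and Gpx4 did not, so for them an exact permutation test (two-sided, 924 assignments of 12 libraries to 2 groups, smallest possible p 0.00216) was used. Against saline, 58.0% of all genes tested were called after doxorubicin with saline (38.0% higher, 20.0% lower) and 53.3% after doxorubicin with AICAR (34.8% higher, 18.4% lower). Between the doxorubicin groups 1.33% were called (0.577% higher, 0.753% lower).

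Several facts of the libraries touch the results. DOX+saline animals 1 and 6 were far more alike than any other pair, with a median chi-square per gene of 0.618, where repeat draws of reads from 1 library give 0.455. The 14 other pairs of that group lay between 3.17 and 8.26, the 15 pairs of DOX+AICAR between 2.07 and 4.17 and the 15 of saline between 1.32 and 2.90. The labels name animals 1 and 6 as separate rats, and the log2 changes and counts of calls were also computed with their mean taken as 1 library. The sample titles number the saline rats 51 to 56 and the doxorubicin rats 1 to 12, and the labels do not say whether these were separate cohorts, so a difference between cohorts, if there were any, and an effect of doxorubicin cannot be told apart. The labelled tissue could not be checked against marker genes, because the identifiers carry no names.

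Tfrc fell in both doxorubicin groups. Its level ranged from 12.3 to 50.6 TPM in DOX+AICAR (median 35.4), from 12.7 to 28.3 TPM in DOX+saline (median 19.1) and from 59.5 to 79.0 TPM in saline (median 67.8). Every doxorubicin heart therefore lay below every saline heart, whether or not AICAR was given. In bulk heart RNA, fewer cells of a type and less RNA per cell cannot be told apart. The mean was 33.99 ± 13.99 TPM in DOX+AICAR, 20.75 ± 5.86 TPM in DOX+saline and 68.1 ± 8.10 TPM in saline (SD, n = 6 each). The mean of DOX+saline was 30.5% of the saline mean, and limma put the log2 change at -1.71 (SE 0.26, adjusted p = 2.52e-05). The mean of DOX+AICAR was 49.9% of the saline mean, with a log2 change by limma of -1.10 (SE 0.26, adjusted p = 0.00162). Ordered by log2 change, Tfrc stood at rank 19 from the lowest among the 14732 genes in DOX+saline against saline and at rank 65 in DOX+AICAR against saline. At 746 to 5508 reads per library, counting error was small beside the spread between animals.

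Between the doxorubicin groups, 4 of 6 DOX+AICAR hearts had more Tfrc than every DOX+saline heart, and 1 had less than every one of them. The single DOX+AICAR values were 31.4, 25.2, 39.3, 45.1, 50.6 and 12.3 TPM for animals 7 to 12, against 26.95, 18.8, 18.5, 12.7, 19.3 and 28.3 TPM for DOX+saline animals 1 to 6. Animal 12 stood lowest and animal 11 highest of the AICAR-treated rats, and the groups overlapped. The log2 change was 0.61 with a 95% interval of 0.06 to 1.15, and it did not pass the threshold (limma unadjusted p = 0.0306, adjusted p = 0.233). The exact permutation test gave p = 0.102. Without DOX+AICAR animal 12 the log2 change was 0.86 and was called (limma adjusted p = 0.0476), and 89 of 14690 genes tested were called in that fit. In the other 17 fits that left out 1 animal the adjusted p lay between 0.198 and 0.396. With DOX+saline animals 1 and 6 both left out the log2 change was 0.83 (limma unadjusted p = 0.00921, adjusted p = 0.109). With those animals averaged it was 0.69 (limma unadjusted p = 0.0195, adjusted p = 0.206). Tfrc was at rank 122 from the highest of 14732 genes by log2 change in this comparison.

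**Figure D1:**
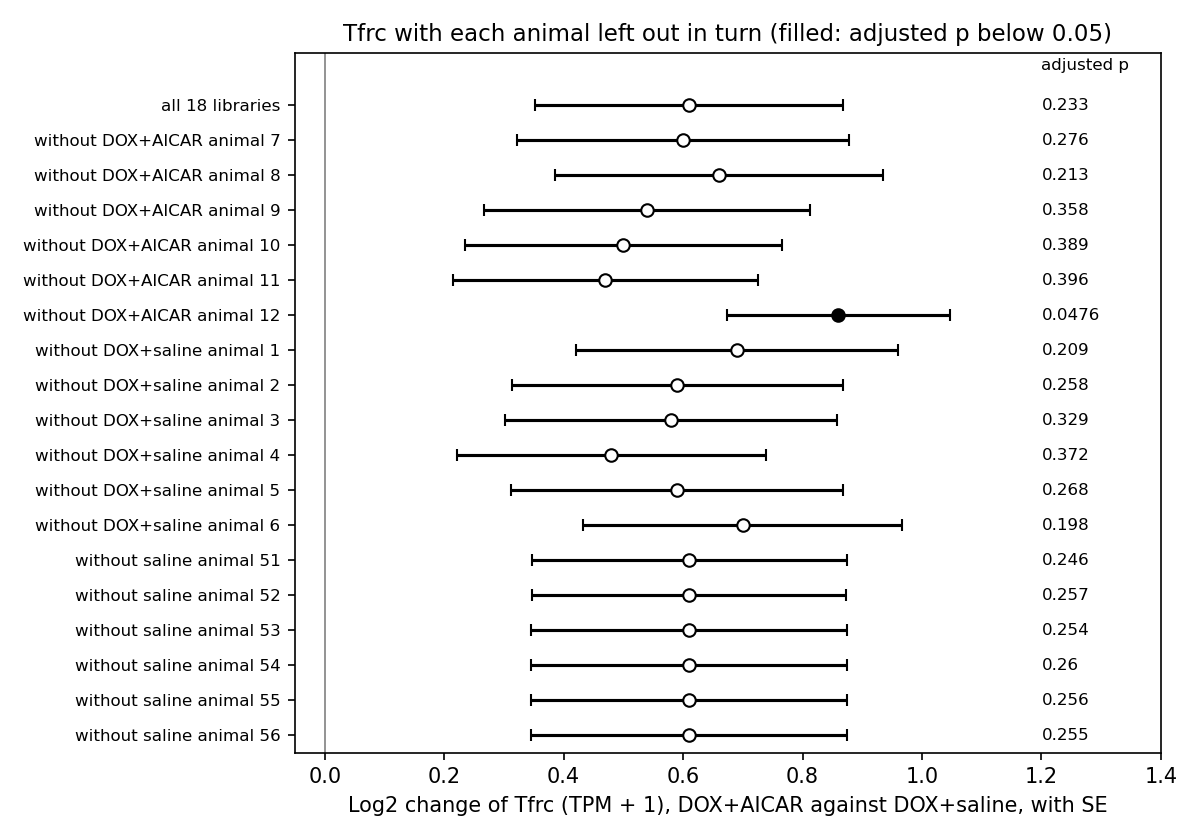
Log2 change of Tfrc (TPM + 1) in DOX+AICAR against DOX+saline, with its SE, in the fit of all 18 libraries and in the 18 fits that leave out 1 animal, with limma adjusted p at the right. Values lie between 0.47 and 0.86, and the fit without DOX+AICAR animal 12 is the 1 filled point (adjusted p below 0.05).

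Hmox1 rose in both doxorubicin groups. Its level ranged from 32.7 to 58.2 TPM in DOX+AICAR (median 48.97), from 30.95 to 50.7 TPM in DOX+saline (median 46.8) and from 21.03 to 29.6 TPM in saline (median 27.2). No doxorubicin heart reached down to the highest saline heart, and the nearest pair was DOX+saline animal 3 at 30.95 TPM and saline animal 54 at 29.6 TPM. The mean was 46.7 ± 11.3 TPM in DOX+AICAR, 43.08 ± 8.91 TPM in DOX+saline and 25.7 ± 3.65 TPM in saline (SD, n = 6 each). The ratio of means was 1.67 for DOX+saline over saline, and limma put the log2 change at 0.71 (SE 0.16, adjusted p = 0.00119). For DOX+AICAR over saline it was 1.81, with a log2 change by limma of 0.81 (SE 0.16, adjusted p = 0.000412). The median log2 change of all genes tested was 0.10 in DOX+saline against saline, so most genes had a rise on this scale and that of Hmox1 is to be read against it. Median-of-ratios scaling brought that median to -0.01 and left Hmox1 at 0.59 (limma adjusted p = 0.00395), and quantile normalization left it at 0.62 (limma adjusted p = 0.00309). Under these scalings the split of called genes was 4041 higher and 4396 lower, and 3478 higher and 4959 lower, against 5595 and 2943 on the deposited values.

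Hmox1 did not differ past the threshold between the doxorubicin groups. Animals 8, 11 and 12 of DOX+AICAR lay above every DOX+saline heart, at 52.8, 58.2 and 57.2 TPM, while animals 7 and 10 lay at 32.7 and 34.2 TPM. In DOX+saline, animals 2 and 3 lay at 32.9 and 30.95 TPM and the other 4 between 44.8 and 50.7 TPM. The log2 change was 0.10 with a 95% interval of -0.23 to 0.44 (limma adjusted p = 0.781).

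**Figure D2:**
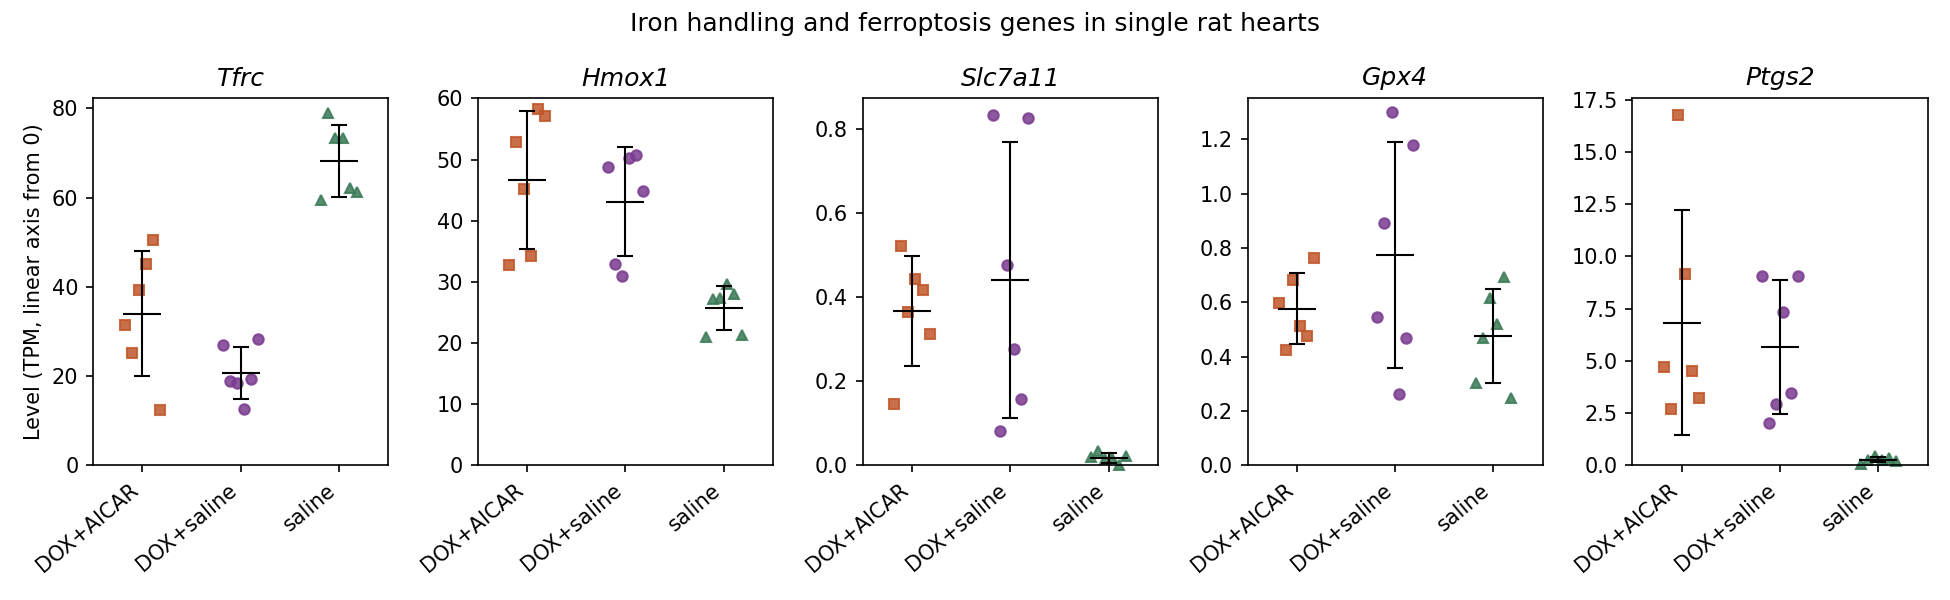
Level of the 5 genes (TPM, linear axes from 0, each gene on its own scale) in the 18 hearts by group. Points are animals, horizontal bars the group means and whiskers the SD (n = 6). Saline hearts lie above all doxorubicin hearts for Tfrc (59.5 TPM and more) and below them for Hmox1, Slc7a11 and Ptgs2, and the groups overlap for Gpx4.

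Hmox1 and Tfrc exchanged their order within the heart. In saline, Hmox1 was the lower of the pair in all 6 hearts, and its ratio to Tfrc lay between 0.344 and 0.451 (median 0.362). In DOX+saline, Hmox1 was the higher in 6 of 6 hearts, with ratios of 1.58 to 3.97 (median 1.78), and in DOX+AICAR in 5 of 6, with ratios of 0.758 to 4.63 (median 1.15). A ratio within 1 library does not depend on how libraries are scaled to each other. The log2 ratio was 2.49 higher in DOX+saline than in saline and 1.97 higher in DOX+AICAR than in saline. These differences follow from the separation of both genes given above and are a description, not the result of a test. Between DOX+AICAR and DOX+saline the log2 ratio differed by -0.52 (exact permutation p = 0.26, adjusted p = 0.334 over the 9 ratio comparisons computed). The 9 include the comparisons with saline, each at an exact permutation p of 0.00216, which lowers that adjusted p. Without DOX+saline animals 1 and 6 the other 4 hearts of that group had ratios of 1.68 to 3.97 (median 2.19), and the difference was -0.68 (exact permutation p = 0.238). These ratios were chosen after the values were seen.

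**Figure D3:**
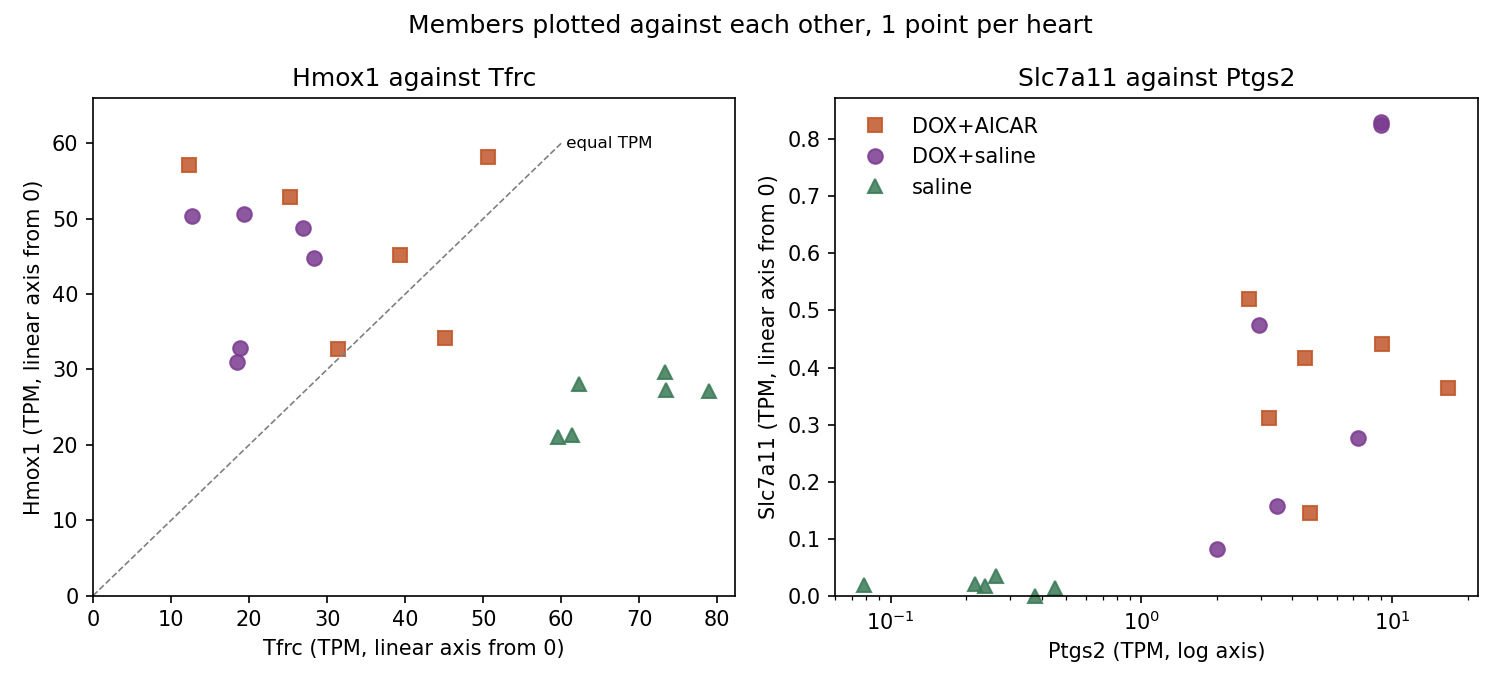
Hmox1 against Tfrc (left, linear axes in TPM, dashed line at equal TPM) and Slc7a11 against Ptgs2 (right, Ptgs2 on a log axis), 1 point per heart. Saline hearts form the group at high Tfrc and low Hmox1, with ratios of at most 0.451, and DOX+saline animals 1 and 6 coincide at the upper right of the second panel, at 9.07 and 9.06 TPM of Ptgs2.

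Slc7a11 was scarce in every heart and rose in both doxorubicin groups. Its level ranged from 0.145 to 0.520 TPM in DOX+AICAR (median 0.390), from 0.0816 to 0.831 TPM in DOX+saline (median 0.376) and from 0 to 0.0344 TPM in saline (median 0.0180). The lowest doxorubicin heart was above the highest saline heart. In reads, this was 17 to 67 per library in DOX+AICAR, 10 to 107 in DOX+saline and 0 to 4 in saline, where animal 55 had 0 reads, which allows up to 3. In both comparisons with saline the exact permutation test gave p = 0.00216, the smallest possible. Summed over each group there were 324 reads in DOX+saline and 12 in saline, a ratio of 25.9 per read assigned to genes (95% exact interval 14.6 to 50.6, Clopper-Pearson, counting error alone). In DOX+AICAR there were 271 reads, a ratio of 21.6 to saline (12.2 to 42.4). Without DOX+saline animals 1 and 6, which held most of the reads of their group, 124 reads remained and the ratio of DOX+saline to saline was 14.7 (8.10 to 29.2). The ratio of DOX+AICAR to DOX+saline was 0.837 (0.709 to 0.986) with all libraries and 1.48 (1.19 to 1.84) without those animals, so its direction rested on them. The log2(TPM + 1) scale compresses such low values: the difference on it was 0.47 in DOX+saline against saline and 0.42 in DOX+AICAR against saline. On the recovered reads, limma with voom weights gave log2 changes of 4.22 (SE 0.85, adjusted p = 0.000437) and 4.30 (SE 0.85, adjusted p = 0.000428), where 51.5% and 45.3% of 20342 genes were called. Between the doxorubicin groups voom gave 0.07, and 0.929% of genes were called.

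The doxorubicin hearts differed widely in Slc7a11. In DOX+saline the highest heart had 10.2 times the level of the lowest, with animals 1 and 6 at 0.831 and 0.826 TPM and animal 2 at 0.0816 TPM, and in DOX+AICAR the highest had 3.60 times the lowest. Without animals 1 and 6 the difference from saline was 0.28 on the log2(TPM + 1) scale (exact permutation p = 0.00476). With their mean taken as 1 library it was 0.40 (exact permutation p = 0.00216). Each of these p-values is the smallest possible for the libraries left, so they do not measure how strong the difference was. The doxorubicin groups overlapped, with means of 0.367 ± 0.130 TPM in DOX+AICAR and 0.441 ± 0.328 TPM in DOX+saline (SD, n = 6 each, difference -0.05 on the log2 scale, exact permutation p = 0.725). In the limma fit without a filter on low values, which called 0.572% of 25878 genes in this comparison, the 95% interval of that difference was -0.29 to 0.19. The same fit gave 0.23 to 0.71 for DOX+saline against saline (adjusted p = 0.00304, 38.7% of genes called) and 0.18 to 0.66 for DOX+AICAR against saline (adjusted p = 0.00785, 33.5% of genes called).

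**Figure D4:**
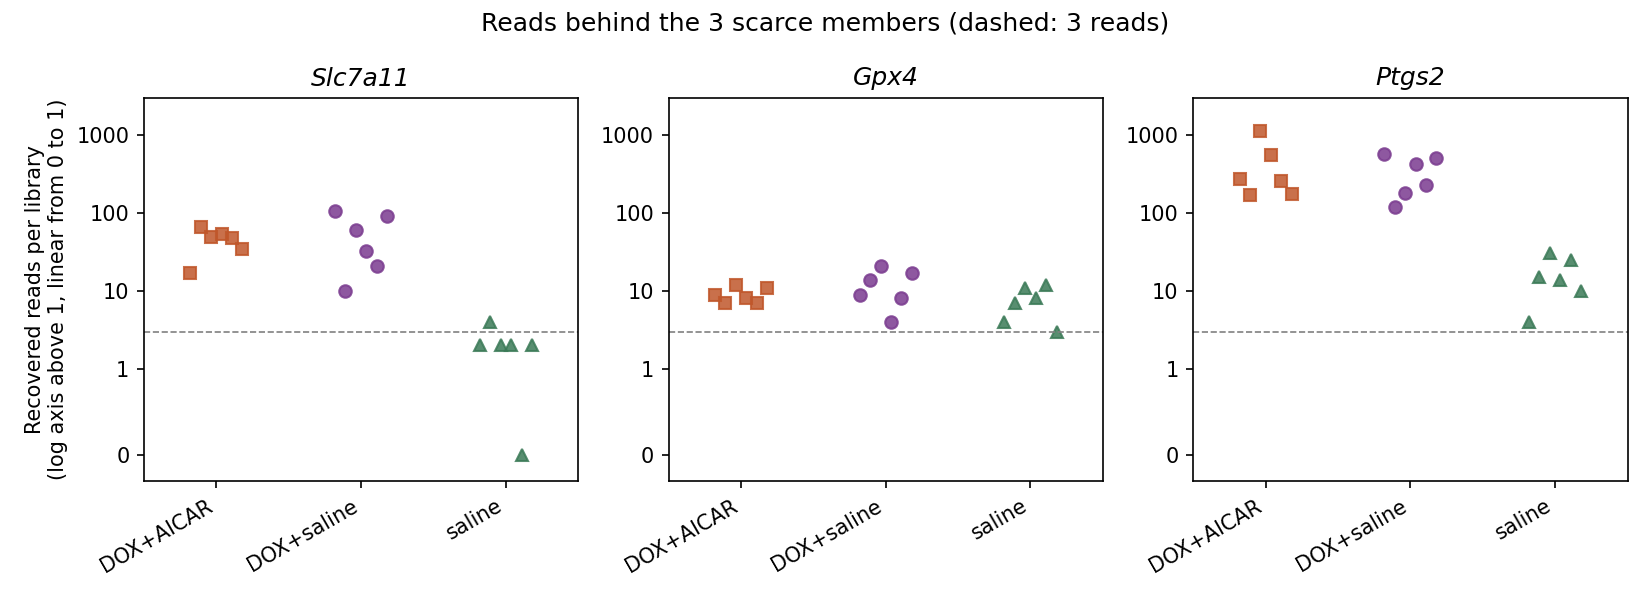
Recovered reads per library of Slc7a11, Gpx4 and Ptgs2 by group (log axis above 1 read, linear between 0 and 1, dashed line at 3 reads), 1 point per animal. Slc7a11 has 10 to 107 reads in the doxorubicin hearts and 0 to 4 in saline hearts, while Gpx4 has 3 to 21 reads in all groups.

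The row named Gpx4 held few reads in all groups. Libraries had 7 to 12 reads in DOX+AICAR, 4 to 21 in DOX+saline and 3 to 12 in saline, for a counted length of 1139 bp. The level was 0.576 ± 0.130 TPM in DOX+AICAR, 0.774 ± 0.415 TPM in DOX+saline and 0.475 ± 0.173 TPM in saline (SD, n = 6 each). Gpx4 is known as a gene that most tissues express, and a row at this level goes against that, so the values are given for this row and not as the abundance of Gpx4 messenger RNA. Whether reads of the gene were assigned to another row or left uncounted was not tested. The groups overlapped in every comparison. DOX+saline against saline differed by 0.24 on the log2(TPM + 1) scale (exact permutation p = 0.152), with DOX+saline animals 3 and 6 highest at 1.30 and 1.18 TPM and animal 4 low at 0.262 TPM. DOX+AICAR against DOX+saline differed by -0.14 (exact permutation p = 0.361) and DOX+AICAR against saline by 0.10 (exact permutation p = 0.275). In the limma fit without a filter the 95% intervals were -0.03 to 0.51, -0.41 to 0.13 and -0.17 to 0.37 in that order of comparisons.

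Ptgs2 rose in both doxorubicin groups and had the largest fold change of the 3 genes in the fit. Its level ranged from 2.68 to 16.8 TPM in DOX+AICAR (median 4.61), from 2.01 to 9.07 TPM in DOX+saline (median 5.41) and from 0.0784 to 0.452 TPM in saline (median 0.250). The lowest doxorubicin heart, DOX+saline animal 2, was above the highest saline heart, animal 53. The mean was 6.84 ± 5.37 TPM in DOX+AICAR, 5.65 ± 3.21 TPM in DOX+saline and 0.271 ± 0.130 TPM in saline (SD, n = 6 each). The ratio of means to saline was 20.9 for DOX+saline and 25.3 for DOX+AICAR. On the log2(TPM + 1) scale the changes were 2.24 (SE 0.36, limma adjusted p = 4.48e-05) and 2.40 (SE 0.36, limma adjusted p = 2.69e-05), at ranks 151 and 103 from the highest of 14732 genes. That scale compresses low values such as those in saline, so the ranks hold for that scale only. On the recovered reads, limma with voom weights gave 4.22 (SE 0.97, adjusted p = 0.00135) and 4.44 (SE 0.96, adjusted p = 0.000968). Ptgs2 reached 1 TPM in 0 of 6 saline hearts, so it entered the fit through the doxorubicin hearts, in which it had to be high. The exact permutation test, which needs no such filter, gave p = 0.00216 in both comparisons, the smallest possible.

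Ptgs2 in the doxorubicin groups was spread over several fold without a difference past the threshold between them. DOX+AICAR animals 9 and 10 were highest, at 16.8 and 9.14 TPM, and the other 4 lay between 2.68 and 4.72 TPM. In DOX+saline, animals 1, 4 and 6 lay at 9.07, 7.34 and 9.06 TPM and animals 2, 3 and 5 between 2.01 and 3.47 TPM. The log2 change was 0.16 with a 95% interval of -0.59 to 0.91 (limma adjusted p = 0.852), and its sign turned to -0.12 without DOX+AICAR animal 9 and to -0.04 without DOX+saline animal 2. It was 0.54 without DOX+saline animals 1 and 6 (limma adjusted p = 0.434) and 0.31 with them averaged (limma adjusted p = 0.707). With animals 1 and 6 averaged, DOX+saline against saline gave 2.09 for Ptgs2 (limma adjusted p = 0.000162), -1.79 for Tfrc (limma adjusted p = 3.60e-05) and 0.68 for Hmox1 (limma adjusted p = 0.00328).

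**Figure D5:**
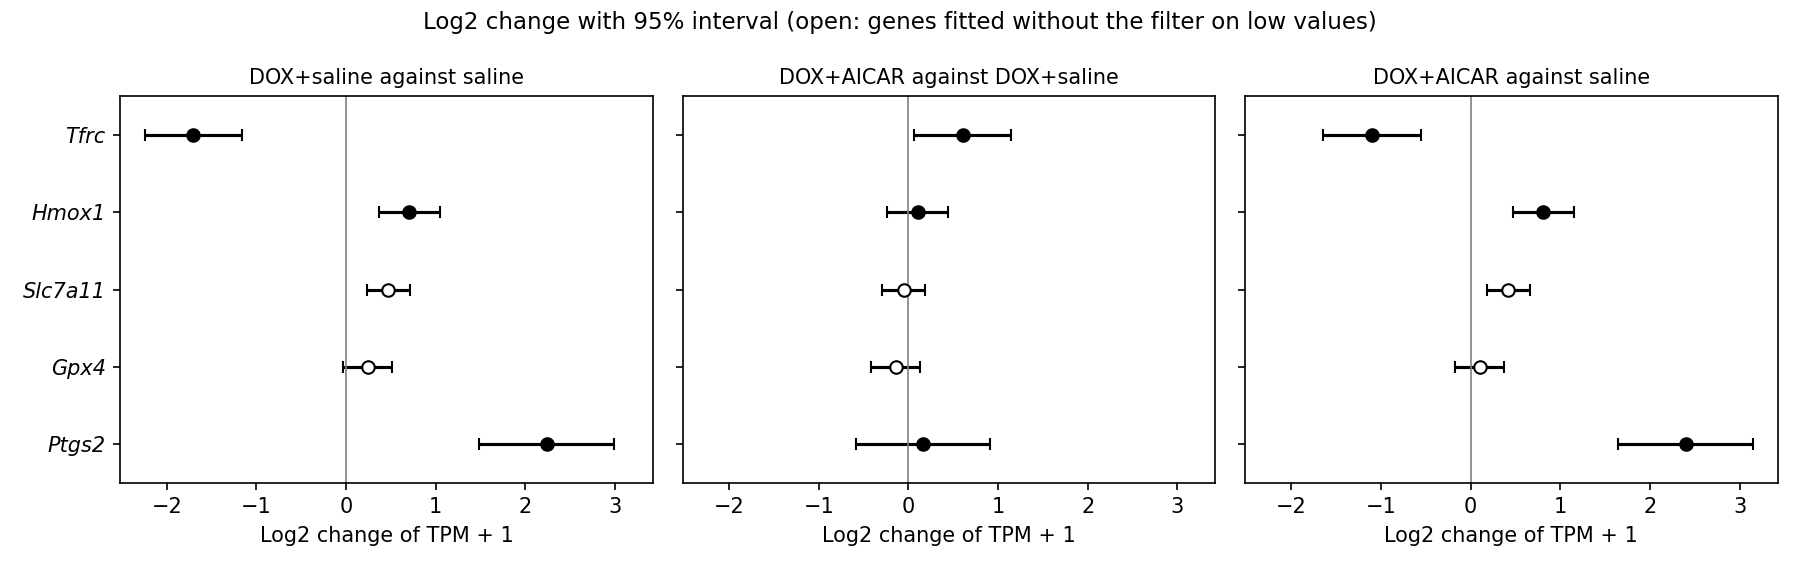
Log2 change of TPM + 1 with its 95% interval from limma for the 5 genes in the 3 comparisons. Filled points come from the fit of 14732 genes and open points (Slc7a11 and Gpx4) from the fit without a filter on low values. Tfrc lies at -1.71 and -1.10 against saline, and 0.61 between the doxorubicin groups, with an adjusted p of 0.233 there.

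Over all comparisons, 4 of the 5 genes passed their test in DOX+saline against saline and in DOX+AICAR against saline. Tfrc was lower and Hmox1, Slc7a11 and Ptgs2 were higher. For Slc7a11 the test was the unadjusted exact permutation test, and for Tfrc, Hmox1 and Ptgs2 it was limma with adjustment. Ptgs2 entered that fit through the doxorubicin hearts, in which it had to be high. The exact permutation test, which needs no filter, gave p = 0.00216 for Ptgs2 in both comparisons. Of all genes tested with limma, 58.0% were called in DOX+saline against saline and 53.3% in DOX+AICAR against saline. Slc7a11 was not among those genes. In the limma fit without a filter on low values it had adjusted p of 0.00304 and 0.00785. That fit called 38.7% and 33.5% of 25878 genes. Those 4 genes also had groups that did not overlap. So did 32.2% of all genes tested with limma in DOX+saline against saline (21.1% higher, 11.2% lower) and 34.5% in DOX+AICAR against saline (22.9% higher, 11.6% lower). Slc7a11 is not among the genes behind these shares. These comparisons share the saline libraries. In DOX+AICAR against DOX+saline, 0 of the 5 passed (limma adjusted p of 0.233, 0.781 and 0.852 for Tfrc, Hmox1 and Ptgs2), where 1.33% of all genes tested with limma were called. At an unadjusted p below 0.05 in limma there was 1, Tfrc, where 17.6% of all genes tested passed that mark. All 5 overlapped in that comparison. Of all genes tested with limma, which exclude Slc7a11 and Gpx4, 1.51% did not (0.658% higher, 0.848% lower).

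By level, the order of the genes differed between saline and both doxorubicin groups. Gpx4 stands here for the few reads of its row and not for the abundance of its messenger RNA. In saline the means ran from Tfrc (68.1 TPM) through Hmox1 (25.7), Gpx4 (0.475) and Ptgs2 (0.271) to Slc7a11 (0.0177 TPM), and Gpx4 exceeded Ptgs2 in 6 of 6 hearts. In DOX+saline they ran from Hmox1 (43.08 TPM) through Tfrc (20.75), Ptgs2 (5.65) and Gpx4 (0.774) to Slc7a11 (0.441 TPM). There Ptgs2 exceeded Gpx4 in 6 of 6 hearts, while Slc7a11 exceeded Gpx4 in 2 of 6, so these last neighbours did not separate. The means of DOX+AICAR had the same order as those of DOX+saline: Hmox1 (46.7 TPM), Tfrc (33.99), Ptgs2 (6.84), Gpx4 (0.576) and Slc7a11 (0.367 TPM). In DOX+AICAR, Ptgs2 exceeded Gpx4 in 6 of 6 hearts, Hmox1 exceeded Tfrc in 5 of 6 and Slc7a11 exceeded Gpx4 in 1 of 6. Spread within groups was smallest for Tfrc in saline (coefficient of variation 11.9%) and largest for Ptgs2 in DOX+AICAR (78.5%).

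Within groups, few hearts were available to ask whether the 5 genes varied together. Of 30 correlations of log2(TPM + 1) between 2 of them, each over the 6 hearts of 1 group, none reached an adjusted p below 0.05. With 6 hearts the smallest exact two-sided p is 0.00278, which for 1 relation alone becomes 0.0833 after adjustment over 30, so the lack of a call says little. The lowest unadjusted p for Pearson's r was that of Gpx4 with Ptgs2 in saline (r = 0.808, exact permutation p = 0.0528, adjusted p = 0.63, rho = 0.829, exact permutation p = 0.0583, adjusted p = 0.437, n = 6), and r was 0.767 without the 2 hearts farthest from the median of Gpx4. In DOX+saline, Hmox1 and Gpx4 had rho = -0.886 (exact permutation p = 0.0333, adjusted p = 0.437, n = 6) and r = -0.753 (exact permutation p = 0.111, adjusted p = 0.63), with r = -0.948 without the 2 hearts farthest in Hmox1. Both pairs use the Gpx4 row, which held 3 to 12 reads per library in saline and 4 to 21 in DOX+saline, and Ptgs2 held 4 to 31 in saline. Counting error therefore limits both relations. The correlations in DOX+saline count animals 1 and 6 as 2 hearts, and fewer than 6 hearts are left without them.

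Few or many other genes shared a pattern with each of the 5 across the 18 libraries, where the difference between doxorubicin and saline is common to many genes. The number of genes kept that correlated with Pearson's r of at least 0.9 was 669 for Ptgs2, 147 for Slc7a11, 7 for Tfrc, 3 for Hmox1 and 0 for Gpx4. At r of -0.9 or below there were 205 for Ptgs2, 59 for Slc7a11, 1 for Hmox1 and 0 for Tfrc and Gpx4. With each gene centred on its group means, which removes the differences between groups, the numbers at 0.9 or above were 2 for Ptgs2, 3 for Slc7a11 and 0 for the other 3, and at -0.9 or below 5 for Slc7a11 and 0 for the other 4. Without DOX+saline animals 1 and 6, the uncentred numbers at 0.9 or above were 492 for Ptgs2, 129 for Slc7a11, 16 for Tfrc, 4 for Hmox1 and 0 for Gpx4, and at -0.9 or below 126, 22, 2, 1 and 0. The centred numbers were then 2 for Ptgs2, 1 for Slc7a11, 2 for Tfrc and 0 for Hmox1 and Gpx4 at 0.9 or above, and 0 for all 5 at -0.9 or below. These genes carry no names in the table and are counted only.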

How the data were processed

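Heart RNA of 18 rats was sequenced, 1 library per animal and 6 per group, grouped by the treatment label. Per the labels' protocols, polyadenylated RNA was made into strand-specific paired-end libraries. Per the submitters' processing notes, the authors used bcl2fastq 2.17.1.14, HISAT2, the build Rnor_6.0 and featureCounts from Subread 1.5.0. No source used here gives the HISAT2 version, the annotation release or the strand setting, so reads of overlapping genes or near-identical copies may not be kept apart. The deposited values are TPM, scaled by the authors to 1000000 per library.

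Reads were recovered from the deposited TPM steps. All 20828 genes above 0 in at least 6 libraries gave whole reads within 0.001 reads and whole lengths within 0.05 bp, and with wrong library factors 0 of 500 genes did. Intervals and the floor of 3 reads cover counting error only, since reads carry no molecular identifiers.

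limma 3.58.1 (R 4.3.3) was fitted to log2(TPM + 1) of genes that reached 1 TPM in 6 or more libraries, with group means, a mean-variance trend and all 18 libraries sharing 1 spread per gene. P-values were two-sided and Benjamini-Hochberg adjusted over all genes tested. Exact permutation tests used scipy 1.17.1. The fit and the recovery were tested on simulated data. Alternatives were pseudocounts of 0.1 and 0.5, other filters, other scalings, array weights, only the 12 libraries compared, exact permutation tests, each animal left out, and DOX+saline animals 1 and 6 left out. Voom on recovered reads of genes with at least 10 reads, animals 1 and 6 averaged, and read ratios, gene ratios and correlation counts without them, were added after the data were seen.

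The members and lists were chosen with earlier results of these data known. The named genes are the 5 members. Lists of other iron, glutathione and cell marker genes by symbol were not analysed here, because the reference table (GRCr8, 47357 genes) matched 0 of the 32545 identifiers. Genes most like a member were to be named only with a symbol, and were counted. RefSeq promoters were matched by symbol for 4 of the 5 genes, all except Hmox1.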

Additional observations from a re-analysis of the deposited data

How the results depend on the processing

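Of 15 results (5 genes in 3 comparisons), 10 kept direction and side of the threshold in each alternative run. There were 30 for Tfrc, Hmox1 and Ptgs2, and 18 or 20 for Slc7a11 and Gpx4, whose permutation test of 2 groups is not altered by the stricter filter, array weights or animals of the other group. In DOX+saline against saline the log2 change ranged from -1.93 to -1.52 for Tfrc, 0.59 to 0.79 for Hmox1, 0.26 to 4.22 for Slc7a11 and 1.86 to 4.22 for Ptgs2, the highest of the last 2 with voom. Gpx4 turned to -0.07 with quantile normalization there and to -0.12 in DOX+AICAR against saline. Leaving out 1 animal gave 0.16 to 0.33 for Gpx4 in DOX+saline against saline, where it passed unadjusted without DOX+saline animal 4 (exact permutation p = 0.0476). So 4 to 5 of the 5 genes passed their test, unadjusted for Slc7a11 and Gpx4. Limma with adjustment there called from 7902 of 14633 genes (without DOX+saline animal 1) to 8710 of 14673 (without DOX+saline animal 2). In DOX+AICAR against DOX+saline, leaving out 1 animal gave 0.47 to 0.86 for Tfrc and 0 to 1 genes called, -0.13 to 0.02 for Slc7a11 and -0.12 to 0.33 for Ptgs2. Slc7a11 turned to 0.02 with quantile normalization, without DOX+saline animal 1 or 6 and with both averaged, to 0.14 without both and to 0.07 with voom. Ptgs2 turned to -0.14 with array weights, -0.12 without DOX+AICAR animal 9 and -0.04 without DOX+saline animal 2. The causes were not tested. Among all genes, the number called in that comparison was 196, but 16 with only the 12 libraries compared, 1058 with array weights, 314 with quantile normalization, 44 with animals 1 and 6 averaged and 36 to 461 with 1 animal left out. No paired analysis was possible because the groups share no animal numbers. Depth limits Gpx4 (3 to 21 reads) and Slc7a11 in saline (0 to 4 reads).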
